A study of Mus musculus with 9 samples.

Results

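The DNA replication genes described here are 41 genes that copy chromosomal DNA in S phase: origin licensing, the MCM helicase and its activators, the sliding clamp and its loader, single-strand binding protein, the replicative polymerases, Okazaki fragment processing and nucleotide synthesis. They were chosen by name, for their known role, out of 18423 genes measured by RNA-Seq in isolated glands of the mouse stomach corpus. All 41 were in the table, and all 41 had an FPKM (fragments per kilobase of transcript, scaled to mapped reads) of at least 1 in at least 3 libraries, as did 11209 genes in all, which were the genes tested.

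There were 3 genotypes with 3 libraries each. Arid1a_Het glands came from Atp4bCre; Rosa26NICD; Arid1aflox/+ mice, Ctrl glands from Atp4bCre; Rosa26NICD mice, and WT glands from wild-type mice. Arid1a_Het and Ctrl thus share a Cre driven by the promoter of Atp4b, a subunit of the proton pump of acid-secreting parietal cells, and the Notch intracellular domain (NICD) placed at Rosa26. They differ by 1 floxed copy of Arid1a, which encodes a subunit of the SWI/SNF chromatin remodeller. Per the labels, tumour-bearing corpus was dissected where there were tumours and the matching region elsewhere, and glands were loosened with EDTA and scraped off. Ages, and which animals bore tumours, were not given. Arid1a_Het 3 was numbered apart from the consecutive run of the other libraries, and whether it was also handled apart is not known here. Ctrl and WT differ in both transgenes, whose parts cannot be told apart. Whether each library stands for its own animal is not in the labels. The p-values here weigh a difference between groups only against the spread among libraries, which may not be the spread among animals. In such bulk samples, fewer cells of a type and less RNA per cell cannot be told apart.

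Before S phase, the origin recognition complex with Cdc6 and Cdt1 loads a ring of the 6 MCM proteins onto DNA. In S phase Cdc45 and the GINS complex join that ring to form the active helicase, and polymerases alpha, delta and epsilon copy the strands on a clamp of PCNA. Most of these genes are transcribed at the entry into S phase under E2F transcription factors. In the gastric corpus, dividing cells sit mainly in the isthmus of each gland, while mature parietal and pit cells do not divide.

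Promoter windows are shown first because the E2F link is the feature that these genes are best known to share. RefSeq windows on GRCm38.p6, from 250 bases before to 50 bases after the start, were matched by symbol for 34 of the 41 genes. Gins1, Gins2, Gins4, Mcm4, Pole, Prim2 and Rfc2 were without one. For replication genes and tested genes only the first window of a gene was used. Of the 34 genes 4 had more than 1 window, so a word may stand in a window not used. The words TTTCCCGC, TTTGGCGC, TTTCGCGC and TTTGCCGC, which are common E2F-type forms, were searched on both strands, and TTTGGCGC and TTTCGCGC can overlap on opposite strands. At least 1 of them stood in the windows of 13 of 34 replication genes (38.2%), against 365 of 8726 tested genes with a window (4.18%) and 744 of 32851 windows of the whole table (2.26%). The word CCAAT, on either strand, stood in 61.8% of the replication gene windows and in 38.7% of those of the tested genes. The 4 windows below are those with a searched word that had the lowest p in Ctrl against WT. Capitals mark the searched words, and in Mcm6 the capitals also cover a pair that overlaps.
Pold3: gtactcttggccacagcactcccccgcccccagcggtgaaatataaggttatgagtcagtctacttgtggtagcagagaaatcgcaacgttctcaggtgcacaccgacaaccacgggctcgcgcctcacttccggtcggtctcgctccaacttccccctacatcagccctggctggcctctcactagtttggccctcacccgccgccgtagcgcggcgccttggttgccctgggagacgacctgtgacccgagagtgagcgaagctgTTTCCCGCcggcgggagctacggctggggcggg
Pold1: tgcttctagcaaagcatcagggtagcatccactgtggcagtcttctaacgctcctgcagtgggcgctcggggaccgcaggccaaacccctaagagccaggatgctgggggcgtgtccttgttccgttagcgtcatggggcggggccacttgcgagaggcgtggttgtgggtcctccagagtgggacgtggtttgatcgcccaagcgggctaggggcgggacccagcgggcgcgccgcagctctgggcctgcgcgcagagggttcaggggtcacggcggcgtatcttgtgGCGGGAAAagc
Orc1: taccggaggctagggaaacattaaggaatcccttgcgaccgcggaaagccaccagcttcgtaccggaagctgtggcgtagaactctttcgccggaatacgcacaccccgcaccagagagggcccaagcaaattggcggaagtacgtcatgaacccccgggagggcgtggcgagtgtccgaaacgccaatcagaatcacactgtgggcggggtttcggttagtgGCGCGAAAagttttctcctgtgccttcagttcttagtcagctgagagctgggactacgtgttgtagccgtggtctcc
Mcm6: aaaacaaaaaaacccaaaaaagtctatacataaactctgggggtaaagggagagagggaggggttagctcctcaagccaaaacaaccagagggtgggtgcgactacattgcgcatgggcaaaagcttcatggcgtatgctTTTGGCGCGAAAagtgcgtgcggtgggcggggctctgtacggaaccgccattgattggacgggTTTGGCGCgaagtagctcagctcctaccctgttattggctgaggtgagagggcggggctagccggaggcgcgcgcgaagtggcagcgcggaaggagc

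The Pold3 window lies at chr7:100121453-100121752 on the minus strand and holds TTTCCCGC from base 18 after the start. The Pold1 window lies at chr7:44548766-44549065, minus strand, with the reverse complement of the same word from base 40 after the start. The Orc1 window is at chr4:108579204-108579503 on the plus strand, with TTTCGCGC read on the other strand 27 bases before the start. The Mcm6 window is at chr1:128359656-128359955 on the minus strand and holds 3 matches, 110, 106 and 47 bases before the start. Its first 2 matches overlap to form TTTGGCGCGAAA. The window of Mcm5, a partner of Mcm6 in the MCM ring, holds the reverse complement TTTCGCGCCAAA, 153 bases before its start, and among 8726 tested genes this 12-base element stood in 4, Mcm5, Mcm6, Msh3 and Mycn (0.0458%). That element was picked after the windows had been read. The other genes with a searched word were Mcm3, Mcm7, Rfc3, Gins3, Cdt1, Cdc6, Pole2 and Pola1. A match is a description of these letters and not evidence of binding.

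Reads worked out from the deposited values came to 22651385 to 29478481 per library. Behind a replication gene stood 26 reads (Orc1 in WT 2) to 4879 reads (Mcm6 in Arid1a_Het 3) in a library, and 5 genes had under 100 reads in some library. Arid1a itself had 8.94, 5.90 and 6.96 FPKM in Arid1a_Het, 14.9, 13.3 and 16.2 FPKM in Ctrl and 13.5, 7.79 and 12.0 FPKM in WT. All 3 Arid1a_Het libraries lay below all 3 Ctrl libraries, with p = 0.1 in an exact permutation test (two-sided), which with 3 against 3 cannot go lower. In limma the log2 fold change was -0.95 (SE 0.22) with an adjusted p of 0.299 (Benjamini-Hochberg).

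Libraries within Arid1a_Het and within WT stood far apart for these genes, while those of Ctrl lay closer together. FPKM summed over the 41 genes was 409, 268 and 503 in the Arid1a_Het libraries 1 to 3, was 462, 464 and 412 in the Ctrl libraries, and was 384, 151 and 339 in the WT libraries. WT 2 was the lowest of the 9 libraries for 41 of 41 replication genes, where it was lowest for 47.6% of all tested genes. Within Arid1a_Het, library 2 was lowest for 41 of 41, against 61.9% of all tested genes. Arid1a_Het 3 was the highest of the 9 libraries for 15 of the 41, against 14.7% of all tested genes. After scaling each library by its median ratio over genes, WT 2 was lowest for 38 of 41 and Arid1a_Het 3 was highest for 21. The matching shares of all tested genes were not counted after scaling. The scaled sums were 401, 313 and 485 for Arid1a_Het, 398, 406 and 380 for Ctrl, and 372, 195 and 328 for WT. Over the 41 genes the median coefficient of variation within a group was 29.8% for Arid1a_Het, 10.5% for Ctrl and 44.2% for WT, where all tested genes had 20.9%, 13.2% and 24.0%. The ratio of the highest to the lowest library ran from 1.64 (Rpa1) to 8.20 (Pole) with a median of 3.88, and was 2.20 at the median of all tested genes.

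**Figure D1:**
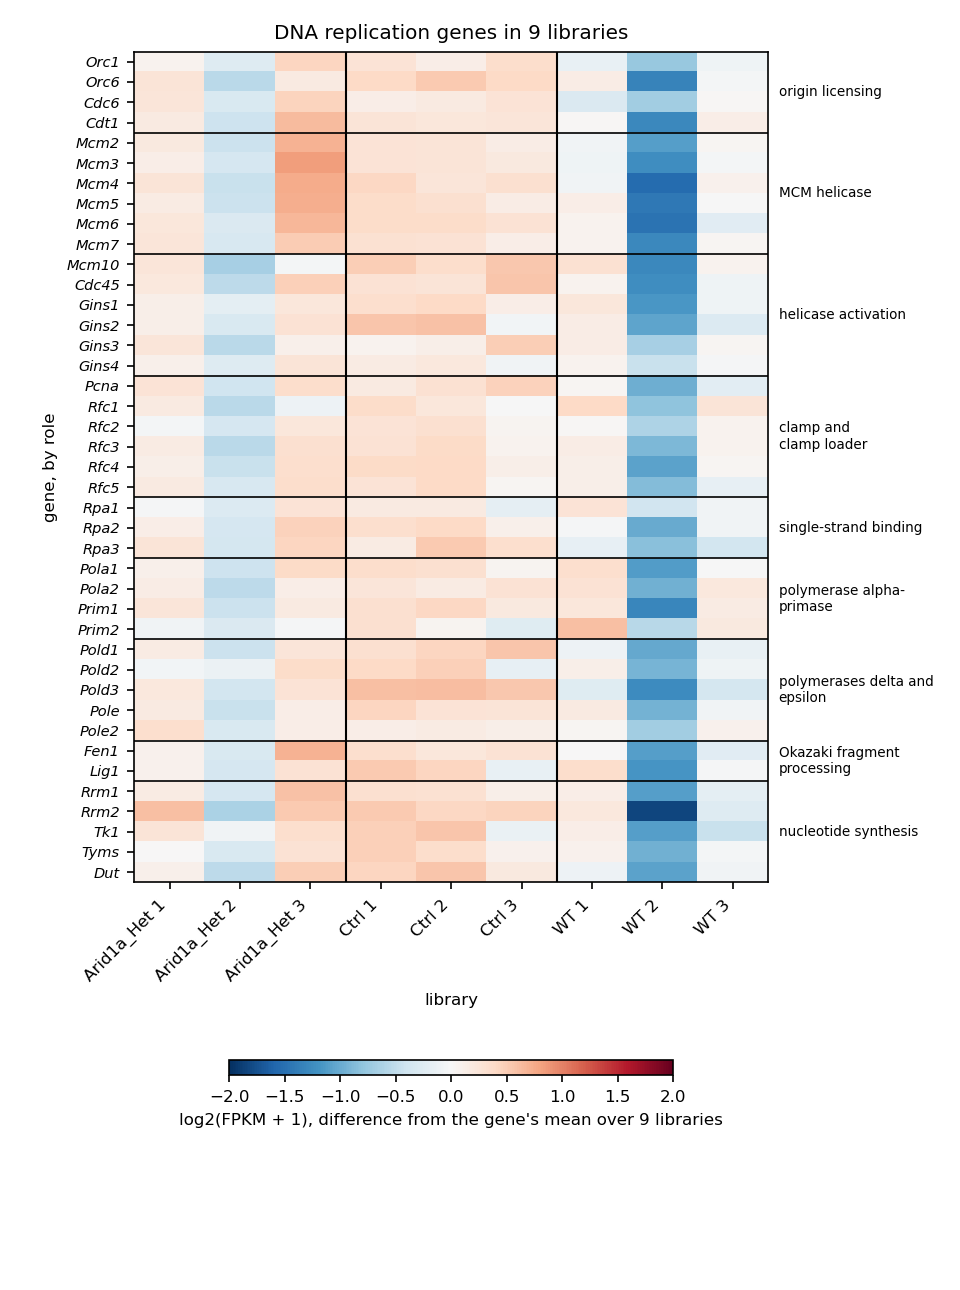
Each row is a replication gene, ordered by role, and each column a library, with Arid1a_Het left, Ctrl in the middle and WT right; colour is log2(FPKM + 1) minus the mean of the gene over the 9 libraries, blue below and red above. WT 2 is the lowest of the 9 libraries in all 41 rows, and Arid1a_Het 2 is the lowest of its group in all 41.

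Markers of other cell types moved with these libraries, and their part in the values was not tested. Pgc, which encodes the pepsinogen of chief cells, took a share of all FPKM of 3.34%, 17.9% and 1.89% for Arid1a_Het, of 1.49%, 4.91% and 1.84% for Ctrl, and of 2.99%, 16.5% and 8.38% for WT. The same 2 libraries that were low for replication genes were thus high for Pgc. The 10 parietal cell markers summed to 471 to 4847 FPKM in Arid1a_Het, 281 to 1098 FPKM in Ctrl and 2864 to 14038 FPKM in WT, highest in WT 2, and 7 of the 10 fell in Ctrl against WT (limma, adjusted p under 0.05). Exocrine pancreas markers, of which 12 of 13 were in the table, summed to 4233 FPKM in Ctrl 1 and 1632 FPKM in Arid1a_Het 3, and to at most 329 FPKM elsewhere. The 11 leukocyte markers summed to 15.9 to 135 FPKM in Arid1a_Het, 39.5 to 63.5 FPKM in Ctrl and 11.2 to 104 FPKM in WT. The 7 squamous forestomach markers summed to 394, 234 and 1009 FPKM in Arid1a_Het, 277, 326 and 719 FPKM in Ctrl and 362, 96.4 and 46.1 FPKM in WT, highest in Arid1a_Het 3, and 1 of 5 tested rose in Ctrl against WT. The 7 pit cell markers summed to 45001 to 80016 FPKM in Arid1a_Het, 37501 to 44708 FPKM in Ctrl and 68539 to 93759 FPKM in WT, with 3 of 7 falling and 1 rising in Ctrl against WT. The 7 gastric endocrine markers summed to 98.0 to 3302 FPKM in Arid1a_Het, 70.3 to 1505 FPKM in Ctrl and 1092 to 4021 FPKM in WT, with 4 of 7 falling in Ctrl against WT. Of the 7 leukocyte markers tested 1 rose in Ctrl against WT, and of the tested chief, mucous neck, pancreas, fibroblast and erythroid markers 0 were called. None of the markers found in the table was at 0 in every library.

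**Figure D2:**
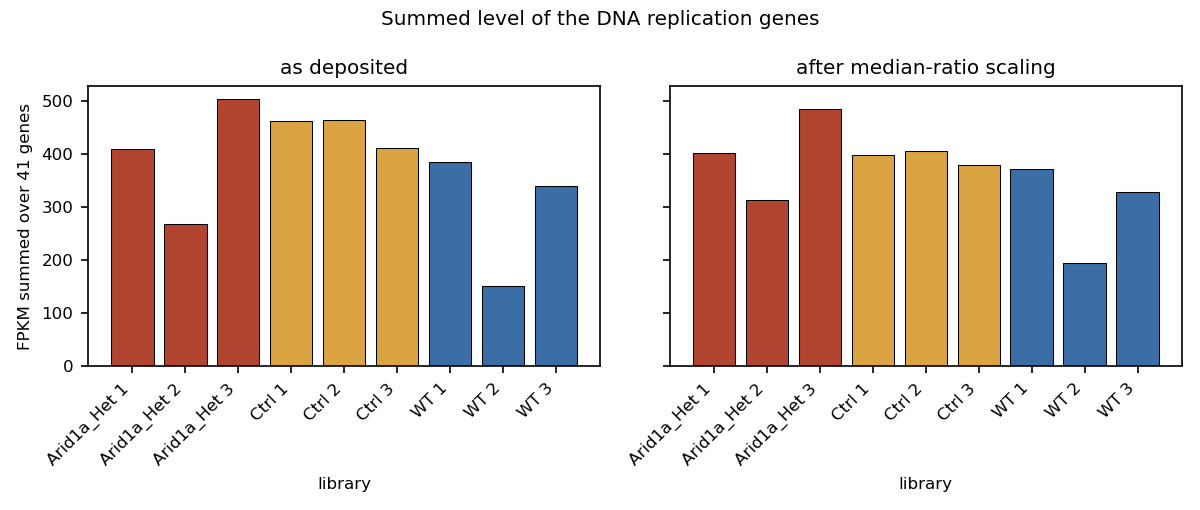
Bars give the FPKM summed over the 41 replication genes in each of 9 libraries (red Arid1a_Het, yellow Ctrl, blue WT), as deposited on the left and after median-ratio scaling on the right. Deposited sums run from 151 in WT 2 to 503 in Arid1a_Het 3, and WT 2 stays lowest at 195 after scaling.

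Ctrl against WT asks what differs in NICD-expressing glands that keep both copies of Arid1a. Of the 41 replication genes 1, Pold3, rose in Ctrl and 0 fell, while 7.01% of all tested genes were called higher and 3.04% lower (limma on log2(FPKM + 1), Benjamini-Hochberg adjusted p under 0.05). At an unadjusted p under 0.05, 11 were higher and 0 lower, where the shares of all tested genes were 23.7% and 8.44%. In 23 of the 41 every Ctrl library lay above every WT library, and in 0 below, against 33.5% and 10.2% of all tested genes. The median log2 fold change of the 41 was 0.61 (range -0.04 to 1.20) and that of all tested genes 0.24, a difference of 0.38. Median-ratio scaling moved the median of all tested genes to 0.01 and that of the 41 to 0.41, and quantile normalization moved them to -0.01 and 0.34. The mean was highest in Ctrl for 38 of the 41 and lowest in WT for 38, counts that were not made for all tested genes.

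The size of that shift rested in part on WT 2. Without it the median of the 41 was 0.26 and that of all tested genes 0.11. The number called was 0, where 297 of all tested genes were called higher and 79 lower. It was also 0 when any single Ctrl library or WT 3 was left out. The ratio of the Ctrl mean to the WT mean, 1.54 at the median, was 1.25 against the mean of WT 1 and WT 3. Positive log2 fold changes were found for 40 of the 41 with all libraries, for 38 after either scaling and for 37 without WT 2. With all libraries, 7991 of the 11209 tested genes were positive too. Positive values among all tested genes were not counted after scaling or without WT 2.

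Same-numbered Ctrl and WT libraries deviated together. A fit of all 9 libraries with the replicate number as a block called 6 replication genes higher: Cdc45, Pcna, Rpa3, Pold1, Pold3 and Rrm2. That fit called 16.1% of all tested genes higher and 5.97% lower. The labels do not pair these libraries. The pairing was read from these same data, so calls made only with the block, here and below, are not separate evidence of a change.

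**Figure D3:**
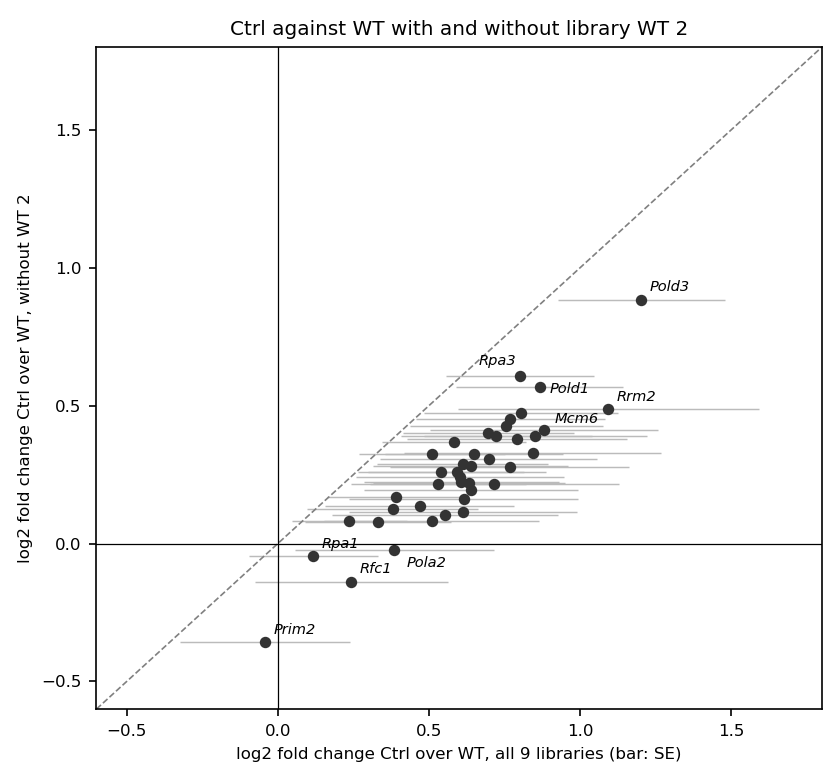
Each dot is a replication gene; the x axis is the log2 fold change of Ctrl over WT from all 9 libraries with its SE as a horizontal bar, the y axis the same without library WT 2, and the dashed line marks equal values. The dots lie below the line, with Pold3 at 1.20 and 0.88, and 4 genes are below 0 on the y axis.

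Origin licensing came first in the order of events. Orc1, the largest subunit of the origin recognition complex, had 1.27, 0.823 and 1.92 FPKM in Arid1a_Het, 1.62, 1.37 and 1.78 FPKM in Ctrl and 0.953, 0.284 and 1.05 FPKM in WT. Ctrl lay above WT without overlap, but the log2 fold change of 0.58 (SE 0.24) did not pass (limma, adjusted p 0.131). Orc6, the smallest subunit of that complex, had 9.95, 5.32 and 9.47 FPKM in Arid1a_Het, 11.1, 12.3 and 11.1 FPKM in Ctrl and 9.22, 2.64 and 7.92 FPKM in WT. Its Ctrl libraries were above both other groups. Cdc6, the ATPase that helps load MCM, averaged 3.75 ± 1.21, 3.86 ± 0.239 and 2.48 ± 0.854 FPKM in Arid1a_Het, Ctrl and WT (SD, n = 3 each). Cdt1, its partner in loading, averaged 8.94 ± 3.50, 9.26 ± 0.0661 and 6.31 ± 3.26 FPKM in the same order. All 4 licensing genes had Ctrl above WT in every library, as had 33.5% of all tested genes, with log2 fold changes of 0.51 to 0.85, and 0 of 4 passed.

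The MCM genes encode the 6 subunits of the replicative helicase. Mcm6 was the most highly expressed in Ctrl, with 26.4, 18.0 and 36.0 FPKM in Arid1a_Het, 29.0, 28.9 and 27.4 FPKM in Ctrl and 23.5, 7.36 and 19.0 FPKM in WT. The 3 Ctrl libraries were close together and above all 3 WT libraries, while the Arid1a_Het libraries spanned both sides of them. Its log2 fold change in Ctrl against WT was 0.88 (SE 0.38), which did not pass (limma, adjusted p 0.145). Mcm3 had 21.7, 15.4 and 36.1 FPKM in Arid1a_Het, 24.3, 23.9 and 22.9 FPKM in Ctrl and 18.6, 7.85 and 19.3 FPKM in WT. Mean levels in Ctrl were in the order Mcm6, Mcm3, Mcm5, Mcm4, Mcm7, Mcm2, at 28.4 ± 0.882, 23.7 ± 0.723, 22.4 ± 1.82, 16.6 ± 1.05, 12.4 ± 0.857 and 8.61 ± 0.475 FPKM (SD, n = 3 each). Mcm3 and Mcm5 were the neighbours whose means lay within their spread. The full order was the same in 5 of the 9 libraries, and Mcm4, Mcm7 and Mcm2 held the last 3 places in every library. All 6 MCM genes had Ctrl above WT without overlap, as had 33.5% of all tested genes, with log2 fold changes of 0.60 to 0.88, and 0 of 6 passed. In Arid1a_Het against Ctrl their log2 fold changes were -0.14 to -0.04.

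Helicase activation involves Mcm10, Cdc45 and the 4 GINS subunits. Mcm10, which helps start unwinding, had 3.73, 1.51 and 2.88 FPKM in Arid1a_Het, 4.64, 4.08 and 4.80 FPKM in Ctrl and 3.91, 0.637 and 3.20 FPKM in WT. All Ctrl libraries exceeded those of both other groups, and the log2 fold change in Arid1a_Het against Ctrl, -0.62 (SE 0.39), was the most negative of the 41 genes without passing (limma, adjusted p 0.534). Cdc45, a component of the moving helicase, had 4.65, 2.37 and 5.73 FPKM in Arid1a_Het, 4.94, 4.82 and 6.16 FPKM in Ctrl and 4.09, 1.05 and 3.57 FPKM in WT. Its log2 fold change in Ctrl against WT was 0.79 (SE 0.36), with an adjusted p of 0.167 in limma and of 0.0492 with the replicate block. Among the GINS subunits, Gins4 was highest at 17.4 ± 3.26, 18.1 ± 1.92 and 15.4 ± 2.90 FPKM in Arid1a_Het, Ctrl and WT (SD, n = 3 each). It was also among the steadiest genes, with a ratio of 1.68 between its highest and lowest library. Gins1, Gins2 and Gins3 averaged 7.63, 4.57 and 2.66 FPKM in Ctrl, and Ctrl overlapped WT for all 4 GINS genes.

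**Figure D4:**
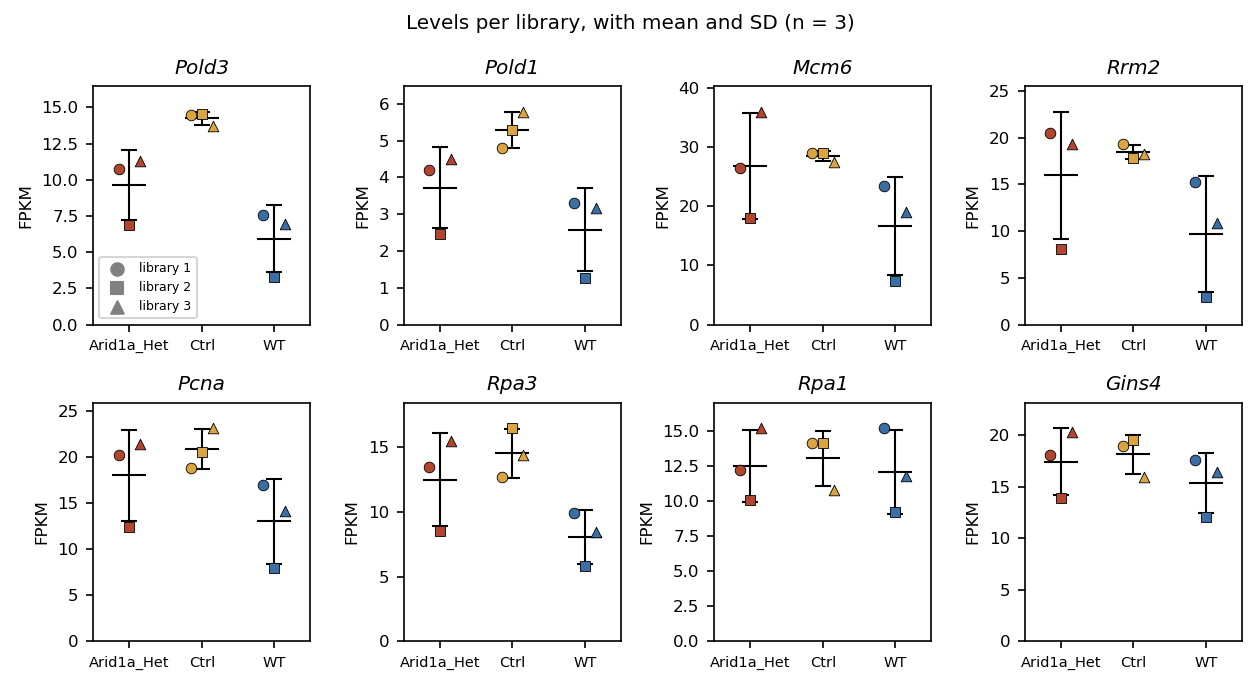
FPKM of 8 replication genes in Arid1a_Het (red), Ctrl (yellow) and WT (blue), with a point per library (circle 1, square 2, triangle 3), a long line at the mean and bars of 1 SD (n = 3 each). Ctrl lies above both other groups for Pold3 and Pold1, while the groups overlap for Rpa1 and Gins4.

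PCNA is the clamp that tethers the polymerases, and replication factor C, encoded by Rfc1 to Rfc5, opens and loads it. Pcna had 20.2, 12.3 and 21.4 FPKM in Arid1a_Het, 18.8, 20.6 and 23.1 FPKM in Ctrl and 17.0, 7.91 and 14.1 FPKM in WT. Every Ctrl library was above every WT library. The log2 fold change was 0.70 (SE 0.28), with an adjusted p of 0.129 in limma and of 0.0494 with the replicate block. Pcna has the pseudogene copies Pcna-ps1 and Pcna-ps2, so its level is uncertain to the extent that reads were shared. The large loader subunit Rfc1 averaged 6.83 ± 1.88, 8.81 ± 1.29 and 7.78 ± 3.45 FPKM in Arid1a_Het, Ctrl and WT (SD, n = 3 each). Ctrl and WT overlapped for all 5 loader genes, and the log2 fold changes of Rfc1 to Rfc5 were 0.24 to 0.61.

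RPA coats single-stranded DNA as a trimer of Rpa1, Rpa2 and Rpa3. Rpa3, its smallest subunit, had 13.5, 8.49 and 15.5 FPKM in Arid1a_Het, 12.7, 16.5 and 14.4 FPKM in Ctrl and 9.89, 5.78 and 8.45 FPKM in WT. Ctrl stood above WT without overlap, with a log2 fold change of 0.80 (SE 0.25) that missed the threshold (limma, adjusted p 0.0672) and passed with the replicate block (adjusted p 0.0400). Rpa1, its largest subunit, had 12.2, 10.0 and 15.2 FPKM in Arid1a_Het, 14.2, 14.2 and 10.8 FPKM in Ctrl and 15.2, 9.25 and 11.8 FPKM in WT. Those groups overlapped, and the log2 fold change in Ctrl against WT was 0.12 (SE 0.21). Within a library, the ratio of the Rpa3 level to the Rpa1 level was 1.10, 0.845 and 1.02 for Arid1a_Het, 0.896, 1.16 and 1.34 for Ctrl and 0.652, 0.626 and 0.716 for WT. The WT ratios were below those of both transgenic groups, and they do not depend on the scale of a library. This ratio was chosen after the values had been seen and was not tested.

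The polymerase alpha-primase complex lays down RNA-DNA primers. Its 4 genes had a median log2 fold change of 0.45 in Ctrl against WT, the lowest median of the 9 roles. Prim2, the large primase subunit, had 3.97, 3.27 and 4.12 FPKM in Arid1a_Het, 5.50, 4.42 and 3.41 FPKM in Ctrl and 6.96, 2.57 and 4.97 FPKM in WT, and with -0.04 (SE 0.28) was the only replication gene with a negative log2 fold change in Ctrl against WT. Its partner Prim1, the catalytic primase subunit, averaged 6.07 ± 1.66, 7.59 ± 0.651 and 5.21 ± 2.95 FPKM in Arid1a_Het, Ctrl and WT (SD, n = 3 each). Pola1, the catalytic subunit, and Pola2, the accessory subunit, averaged 3.46 and 8.27 FPKM in Ctrl. For all 4 genes Ctrl and WT overlapped.

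Pold3, the accessory subunit of polymerase delta that is also needed for break-induced replication, was the gene that passed. It had 10.7, 6.85 and 11.3 FPKM in Arid1a_Het, 14.5, 14.5 and 13.7 FPKM in Ctrl and 7.57, 3.26 and 6.97 FPKM in WT. The Ctrl libraries lay within a narrow band above all libraries of both other groups, and Arid1a_Het overlapped WT. Group means were 9.64 ± 2.43 FPKM in Arid1a_Het, 14.3 ± 0.460 FPKM in Ctrl and 5.93 ± 2.33 FPKM in WT (SD, n = 3 each), a ratio of 2.40 for Ctrl over WT, or 1.96 without WT 2. The log2 fold change in Ctrl against WT was 1.20 (SE 0.28; limma, Benjamini-Hochberg adjusted p 0.0282), and with the replicate block the adjusted p was 0.00955. On whole reads with limma voom it was 1.37 with an adjusted p of 0.0331. The call was lost when Ctrl 1, 2 or 3 was left out (adjusted p 0.0836, 0.0778 and 0.0931), without WT 2 (0.0553) or WT 3 (0.0577), without the libraries rich in pancreas markers (0.0914), and with no filter on low values (0.0590). The log2 fold change was 0.88 without WT 2 and 1.19 to 1.34 in the other cases. In Arid1a_Het against Ctrl the log2 fold change was -0.55 (SE 0.28, adjusted p 0.456), and in Arid1a_Het against WT 0.66 (SE 0.28, adjusted p 0.262), neither past the threshold in limma. The gene lies at chr7:100082111-100121565 on the minus strand of GRCm38.

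Other subunits of polymerase delta did not pass. Pold1, its catalytic subunit, had 4.19, 2.46 and 4.50 FPKM in Arid1a_Het, 4.79, 5.27 and 5.79 FPKM in Ctrl and 3.31, 1.27 and 3.16 FPKM in WT. As for Pold3, all Ctrl libraries exceeded those of both other groups. The log2 fold change of Pold1 in Ctrl against WT was 0.87 (SE 0.28; limma, adjusted p 0.0743, or 0.0253 with the replicate block). Pold2, an accessory subunit, had 14.1, 13.6 and 19.2 FPKM in Arid1a_Het, 19.7, 20.8 and 13.0 FPKM in Ctrl and 16.1, 7.27 and 13.8 FPKM in WT, with overlap between Ctrl and WT. The ratio of the Pold3 level to the Pold2 level was 0.762, 0.504 and 0.590 for Arid1a_Het, 0.737, 0.699 and 1.05 for Ctrl and 0.470, 0.448 and 0.504 for WT, so Ctrl was above WT in all 3 libraries by a measure that was likewise chosen afterwards and not tested. The ratio of Pold3 to Pold1 overlapped, at 2.62 ± 0.143, 2.72 ± 0.329 and 2.35 ± 0.185 in Arid1a_Het, Ctrl and WT (SD, n = 3 each). Pole, the catalytic subunit of polymerase epsilon, had 1.77, 0.804 and 1.69 FPKM in Arid1a_Het, 2.29, 1.95 and 1.95 FPKM in Ctrl and 1.79, 0.279 and 1.34 FPKM in WT. Ctrl was above both other groups, with a log2 fold change over WT of 0.59 (SE 0.29; limma, adjusted p 0.189). Pole2, the second subunit of polymerase epsilon, averaged 5.37 ± 1.36, 5.65 ± 0.109 and 4.44 ± 1.48 FPKM in Arid1a_Het, Ctrl and WT (SD, n = 3 each).

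Okazaki fragments are trimmed by the flap nuclease Fen1 and sealed by the ligase Lig1. Fen1 had 12.3, 9.18 and 19.3 FPKM in Arid1a_Het, 14.7, 13.6 and 14.3 FPKM in Ctrl and 11.6, 4.80 and 9.67 FPKM in WT, with Ctrl above WT and Arid1a_Het on both sides of Ctrl. Lig1 averaged 13.0 ± 2.97, 15.8 ± 3.98 and 11.3 ± 5.80 FPKM in Arid1a_Het, Ctrl and WT (SD, n = 3 each), and its groups overlapped.

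Among nucleotide synthesis genes, Rrm1 and Rrm2 encode the large and small subunits of ribonucleotide reductase. Rrm2 had 20.5, 8.11 and 19.3 FPKM in Arid1a_Het, 19.3, 17.8 and 18.3 FPKM in Ctrl and 15.3, 2.93 and 10.8 FPKM in WT. Ctrl stood above WT, and WT 2 was far below its group. Its log2 fold change in Ctrl against WT was 1.09 (SE 0.50), the second highest of the 41, and with that error did not pass (limma, adjusted p 0.163, or 0.0488 with the replicate block). Rrm1 had 27.3, 19.0 and 37.1 FPKM in Arid1a_Het, 30.7, 30.2 and 26.5 FPKM in Ctrl and 26.7, 10.8 and 21.2 FPKM in WT, with Ctrl overlapping WT. Tk1, the thymidine kinase of the salvage route, Tyms, which makes thymidylate, and Dut, which removes dUTP, had log2 fold changes of 0.77 (SE 0.31), 0.61 (SE 0.28) and 0.80 (SE 0.32) in Ctrl against WT. All 5 genes were positive and 0 of 5 passed.

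Arid1a_Het against Ctrl asks what the loss of 1 Arid1a copy adds. For replication genes no change was called: 0 of 41 were higher and 0 lower, while 0% of all tested genes were called higher and 0.00892% lower (limma, Benjamini-Hochberg adjusted p under 0.05). At an unadjusted p under 0.05 there were 0 in either direction, where 1.15% of all tested genes were higher and 10.5% lower, and limma voom also called 0. The replicate block called 0 of the 41 as well, with 0% of all tested genes higher and 0.0178% lower. In 6 of the 41, Orc6, Mcm10, Pola2, Pold1, Pold3 and Pole, every Arid1a_Het library lay below every Ctrl library, against 22.2% of all tested genes. The reverse held for 0, against 2.41%. The median log2 fold change was -0.23 (range -0.62 to -0.04), and -0.16 for all tested genes, a difference of -0.07. All 41 were negative with deposited values, as were 8131 of the 11209 tested genes. Of the 41, 17 were positive after median-ratio scaling and 18 after quantile normalization. Without Arid1a_Het 2 the median was -0.01 with 19 positive, and without Arid1a_Het 3 it was -0.38. For 17 of the 41 the range of the Ctrl libraries fell wholly within that of the Arid1a_Het libraries. Neither this count nor the positive counts after scaling or without a library were made for all tested genes.

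In Arid1a_Het against WT, 0 of 41 were called higher and 0 lower, while 2.06% of all tested genes were called higher and 0.687% lower (limma, Benjamini-Hochberg adjusted p under 0.05). At an unadjusted p under 0.05, 2 were higher (Pold3 and Rpa3) against 9.81% of all tested genes, 0 were lower against 7.38%, and limma voom called 0. The groups overlapped for all 41, where 10.6% of all tested genes had Arid1a_Het wholly above WT and 8.57% wholly below. The replicate block, under which 3.97% of all tested genes were higher and 2.19% lower, called 0 of the 41. The median log2 fold change was 0.41, against 0.02 for all tested genes, and 0.40 after median-ratio scaling. Of the 41, 39 were positive, Rfc1 and Prim2 being negative, where 5983 of the 11209 tested genes were positive. Without WT 2 the median of the 41 was 0.06 with 24 positive, a count not made for all tested genes. This comparison shares its WT libraries with Ctrl against WT and its Arid1a_Het libraries with Arid1a_Het against Ctrl.

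Other genes of the pathway were followed through 7 lists with 116 genes in the table, of which 113 were tested. In Ctrl against WT 7 of the 113 rose and 1 fell, where 7.01% of all tested genes rose and 3.04% fell (limma), a share near that background. In Arid1a_Het against WT 3 rose and 0 fell, where the shares of all tested genes were 2.06% and 0.687%. In Arid1a_Het against Ctrl 0 were called in either direction, with 0 higher and 7 lower at an unadjusted p under 0.05, against 1.15% and 10.5% of all tested genes. The 113 had a median log2 fold change of 0.54 in Ctrl against WT, -0.30 in Arid1a_Het against Ctrl and 0.25 in Arid1a_Het against WT. With the replicate block, which called 16.1% of all tested genes higher, 23 of the 113 rose in Ctrl against WT. In E2F, RB and cell cycle entry 5 of 22 rose in Ctrl and 0 fell, against 7.01% and 3.04% of all tested genes. Ccnd1, the cyclin D1 of G1 phase, had 107, 54.9 and 150 FPKM in Arid1a_Het, 89.5, 109 and 80.2 FPKM in Ctrl and 32.7, 18.0 and 31.7 FPKM in WT. Both transgenic groups were above WT in every library, with log2 fold changes of 1.76 (SE 0.36, adjusted p 0.0191) for Ctrl and 1.82 (SE 0.36, adjusted p 0.0315) for Arid1a_Het in limma. Its kinase partner Cdk6 had 5.56, 3.64 and 7.37 FPKM in Arid1a_Het, 5.83, 6.19 and 8.54 FPKM in Ctrl and 1.99, 1.18 and 1.98 FPKM in WT. Its log2 fold changes were 1.53 (SE 0.25, adjusted p 0.00910) for Ctrl and 1.24 (SE 0.25, adjusted p 0.0346) for Arid1a_Het over WT in limma. Myc, the growth-promoting transcription factor, rose in Ctrl by a log2 of 1.37 (SE 0.28; limma, adjusted p 0.0190), and E2f3 and E2f5, an activating and a repressing E2F, by 0.77 and 0.69 (limma, adjusted p 0.0452 and 0.0400). Cdk6 in Ctrl against WT was called whichever library was left out. Ccnd1 in Ctrl lost its call without Ctrl 1, 2 or 3 (adjusted p 0.0575, 0.0629 and 0.0672) or WT 2 (0.0658), and Myc without Ctrl 1, 2 or 3 (0.0558, 0.0573 and 0.0775) or WT 3 (0.0507). E2f5 and E2f3 lost theirs without any of Arid1a_Het 1, Ctrl 1, Ctrl 2, Ctrl 3, WT 2 and WT 3 (0.0502 to 0.130 and 0.0671 to 0.143). In Arid1a_Het against WT, Ccnd1 and Cdk6 were not called without any single library other than Arid1a_Het 2 (0.0546 to 0.106 and 0.0503 to 0.113).

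Of the CDK inhibitors, Cdkn2a, which encodes p16INK4a and p19ARF, had 6.19, 4.13 and 11.1 FPKM in Arid1a_Het, 4.29, 6.54 and 4.99 FPKM in Ctrl and 0.0367, 0.130 and 0 FPKM in WT. WT held 1, 4 and 0 reads of it, where the transgenic libraries held 114 to 379, so both transgenic groups stood far above WT. The log2(FPKM + 1) differences were 2.56 for Ctrl (limma, adjusted p 0.00203) and 2.86 for Arid1a_Het (adjusted p 0.00206), and were called under all 19 alternatives. Cdkn1c, which encodes the inhibitor p57, averaged 3.45 ± 1.13, 2.86 ± 1.25 and 8.72 ± 1.87 FPKM in Arid1a_Het, Ctrl and WT (SD, n = 3 each) and fell in Ctrl against WT by 1.37 on the log2 scale (SE 0.30; limma, adjusted p 0.0239). That call was lost without Ctrl 2, Ctrl 3, WT 1 or WT 3 (adjusted p 0.0510, 0.0756, 0.0541 and 0.0735).

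Among 18 further fork, clamp loader and Okazaki fragment factors 1 rose in Ctrl against WT, against 7.01% of all tested genes. This was Pole4, a small histone-fold subunit of polymerase epsilon, at 12.1 ± 2.54, 14.8 ± 0.394 and 9.12 ± 0.776 FPKM in Arid1a_Het, Ctrl and WT (SD, n = 3 each), with a log2 fold change of 0.65 (SE 0.16; limma, adjusted p 0.0377). Only Arid1a_Het 2 or 3 could be left out singly without losing that call (0.0573 to 0.112 otherwise). Helicase loading and firing factors (0 of 17 called, median 0.43), replication-coupled chromatin factors (0 of 11, median 0.55) and nucleotide supply (0 of 19, median 0.31) had no calls in Ctrl against WT. Of all tested genes 7.01% were called higher and 3.04% lower. The counts higher at an unadjusted p under 0.05 were 5, 0 and 3, against 23.7% of all tested genes. Lower at that level was 1 of the 19 nucleotide supply genes, against 8.44% of all tested genes. This was Rrm2b, a small subunit of ribonucleotide reductase induced by p53. It had 1.98, 1.65 and 1.16 FPKM in Arid1a_Het, 1.53, 1.66 and 1.65 FPKM in Ctrl and 2.19, 2.75 and 2.82 FPKM in WT. Its Ctrl libraries lay below all WT libraries, and its log2 fold change of -0.45 (SE 0.17) did not pass (limma, adjusted p 0.111). Their genes of lowest p included Ccne1, the cyclin E1 of S phase entry, at 0.88, and Nme1, a nucleoside diphosphate kinase, at 0.65 on the log2 scale. The 20 mitosis genes, which act after replication, had log2 fold changes of 0.78 to 1.29 with a median of 1.05 in Ctrl against WT. Of these genes 0 of 20 passed, where 7.01% of all tested genes were called higher (limma). At an unadjusted p under 0.05, 12 of the 20 mitosis genes were higher, against 23.7% of all tested genes. Their median in Arid1a_Het against Ctrl was -0.55, with 15 of 20 lower without overlap, against 22.2% of all tested genes, and 0 passing. The kinase gene Cdk1, for example, averaged 11.1 ± 3.70, 15.4 ± 0.361 and 7.65 ± 5.24 FPKM in Arid1a_Het, Ctrl and WT (SD, n = 3 each). Whether these lists differ from the 41 replication genes was not tested.

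**Figure D5:**
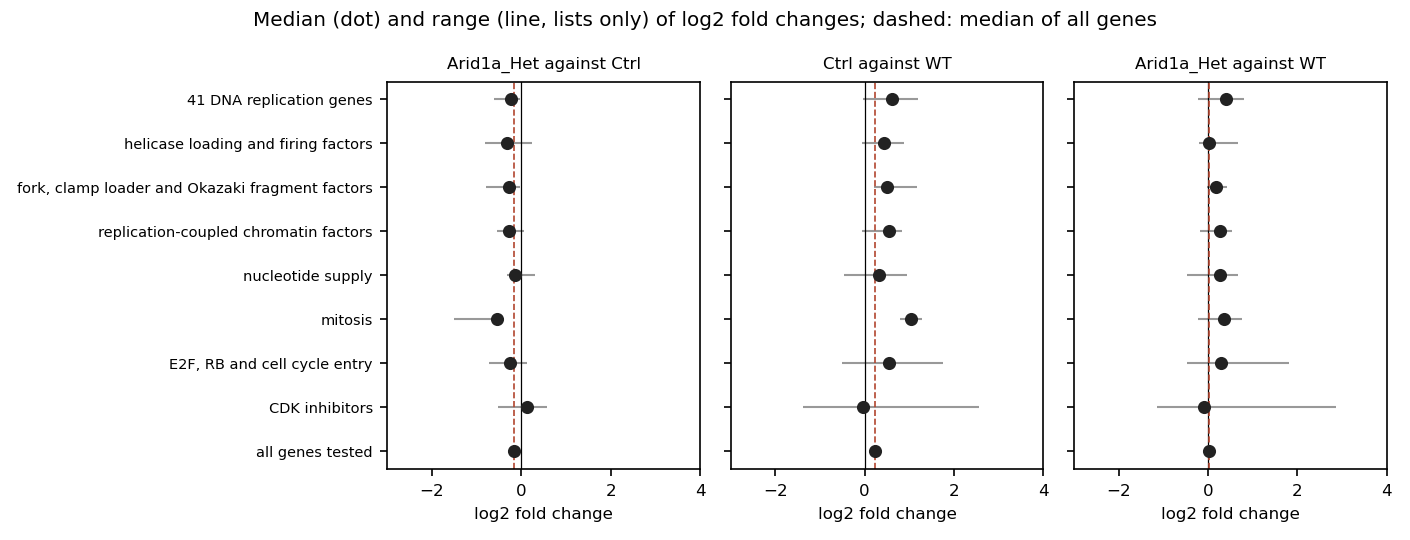
Dots give the median log2 fold change of the 41 replication genes, of 7 lists of related genes and of all tested genes, and grey lines the range over the genes of a list, in Arid1a_Het against Ctrl, Ctrl against WT and Arid1a_Het against WT; the dashed red line is the median of all tested genes. In Ctrl against WT the replication genes have a median of 0.61 and the mitosis genes of 1.05, where all tested genes have 0.24.

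Some levels are uncertain because of neighbouring or similar genes. Exons of Orc1, Orc6, Mcm7, Cdc45, Gins2, Rfc2, Rfc4, Rfc5, Pole, Fen1, Lig1 and Tk1 overlap those of a gene on the opposite strand in GENCODE, and the sources used here do not give the strand setting of the counting. Pole2, Mcm7 and Rpa1 share exon positions with another annotated gene on the same strand, and Tyms has the pseudogene Tyms-ps.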

How the data were processed

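Poly(A) RNA of 9 libraries was sequenced from stranded mRNA libraries (a TruSeq kit, per the labels). The authors deposited FPKM values for 18423 genes. STAR 2.4.2a and the builds GRCm38 and mm10 are named, per the submitters' processing notes, and the counting tool is not given in the sources used here. Whole reads were worked out from the FPKM steps within a tolerance of 0.01, and all 18423 genes came out whole. They served for depth and limma voom. FPKM is relative to the total of a library, so a few abundant genes such as Pgc can lower the values of all others.

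Groups were compared in R 4.3.3 with limma 3.58.1 (lmFit, eBayes with trend) on log2(FPKM + 1), which understates the change of low genes, as 3 group means over all 9 libraries. The 11209 genes tested reached 1 FPKM in 3 or more libraries, and a call needed a Benjamini-Hochberg adjusted p under 0.05. The fit was tested on simulated data. Each result was recomputed under 18 other settings and under 1 chosen after seeing the data. Same-numbered Ctrl and WT libraries correlated in their deviations from the group means (0.207, 0.336 and 0.138), so the replicate number was taken to pair them; the pairing comes from the data, as the labels give no shared litter or day. Arid1a_Het numbers did not pair with Ctrl (-0.151, 0.467 and -0.0202) or WT (0.252, 0.563 and -0.279). The blocked fit still spanned all 9 libraries, so Arid1a_Het libraries were placed in the same blocks by number. It was not a paired fit of Ctrl and WT alone.

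The 41 genes and all lists were chosen with earlier results of these data known. Of other lists the text names each gene called in any comparison, or some of the 4 of lowest p in Ctrl against WT where none was called. Of the listed symbols, 7 were not in the table under these names and were not used here. Promoters came from the RefSeq table (GRCm38.p6) and gene positions from GENCODE on GRCm38. Figures used Python 3.11.15 with matplotlib 3.10.9.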

Additional observations from a re-analysis of the deposited data

How the results depend on the processing

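The 6 counts of called replication genes and the Arid1a level kept their side of the threshold under all alternatives except for the count higher in Ctrl against WT. That count was 1 in the main analysis, 0 with no filter, 0 without the libraries rich in pancreas markers (Ctrl 1 and Arid1a_Het 3), 2 with only the 2 groups compared, 6 with the replicate block, and 2 without WT 2 and Arid1a_Het 2, the Pgc-rich libraries, which was added after seeing the data. Leaving out single libraries gave 0 to 2. All tested genes called higher in these settings, in the same order, numbered 786, 563, 429, 1021, 1804 and 692. Leaving out single libraries gave 209 to 1068 of them. The block changed no other call of these 7 results. Log2 fold changes in Ctrl against WT that turned sign were those of Gins4 (-0.014 with median-ratio scaling), Rfc1 (-0.040 with quantile normalization, -0.14 without both Pgc-rich libraries), Rpa1 (-0.12 with quantile normalization, -0.13 with median-ratio scaling, -0.045 without both Pgc-rich libraries), Pola2 (-0.024 without both Pgc-rich libraries) and Prim2, and leaving out single libraries gave -0.14 to 0.47 for Rfc1, -0.045 to 0.28 for Rpa1, -0.024 to 0.61 for Pola2 (each lowest without WT 2, highest without WT 1) and -0.36 (without WT 2) to 0.22 (without WT 1) for Prim2. The cause was not tested. Pold3 was called in 12 of 19 alternatives (adjusted p 0.00770 to 0.0931 in limma). Of the other genes called in Ctrl against WT, Cdkn2a and Cdk6 were called in 19 of 19, Ccnd1 in 15, Myc in 14, Cdkn1c in 13, E2f5 in 10, E2f3 in 8 and Pole4 in 7; in Arid1a_Het against WT, Cdkn2a was called in 19 of 19 and Cdk6 and Ccnd1 in 8 each. The pathway genes rising in Ctrl against WT, 7 in the main analysis, numbered 2 to 23 over the alternatives. All genes called in Ctrl against WT, 786 higher and 341 lower, became 618 higher and 618 lower with median-ratio scaling and 1804 and 669 with the block, and over all alternatives ran from 209 to 1804 higher and 42 to 703 lower. Those called in Arid1a_Het against WT, 231 and 77, ran from 78 to 532 and from 11 to 246, and in Arid1a_Het against Ctrl, 0 and 1, from 0 to 2 and from 0 to 20. There were 3 libraries a group, and WT 2 and Arid1a_Het 2 stood far from theirs. Reads per replication gene and library ran from 26 to 4879, so counting error weighs most on low genes such as Orc1.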
